A study of Drosophila melanogaster with 9 samples.

Results

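In sorted cells of the Drosophila larval body wall, 47 of 18769 probe sets differed from Control with misexpressed Abrupt and lay close to Control with misexpressed Knot. A probe set is the group of array probes that reports 1 transcript or a few related ones. Membership required a group mean with Abrupt at least 1.5 log2 units from the Control mean, a Knot mean within 0.4 of it, 3 Abrupt arrays all above or all below the 6 others, and a highest group mean of at least 4. The result was 30 probe sets higher with Abrupt (risers) and 17 lower (fallers). Of these, 39 carried 1 gene symbol, 25 among the risers and 14 among the fallers, while 2 risers carried several symbols and 3 probe sets in each direction carried none. The members were selected on these group means and array values, over all 9 arrays, so their values are a description and no test of them is offered.

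Each of the 3 groups held 3 biological replicates, and each sample pooled cells from 80 body walls of wandering larvae of the third instar raised at 25 °C. Control cells came from +/GAL4[21-7], UAS-mCD8:GFP larvae, which carry the driver and a membrane-bound green fluorescent marker. Ab ME cells carried the same driver and marker with UAS-abL/+, and Kn ME cells carried UAS-knL:HA over the chromosome with GAL4[21-7] and UAS-mCD8:GFP. GAL4[21-7] is described by the submitters as active in every class of da neuron (dendritic arborization neurons, which sense touch, heat and posture beneath the larval epidermis), and marked cells were collected with magnetic beads after protease digestion. The deposited values are RMA values, taken as log2 units, in which 1 unit is a doubling of signal.

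Abrupt is a BTB zinc-finger transcription factor known from class I da neurons, where it limits dendrite branching. Knot, also called Collier, is a transcription factor of the COE family known from class IV da neurons, where it promotes the complex arbor of that class. The comparison addressed here is which transcripts differed when the first factor was supplied and lay near Control when the second was.

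The members were a small share of the probe sets that differed with Abrupt. A difference of 1.5 or more with Abrupt was found for 1717 probe sets, of which 810 also had Abrupt arrays apart from the 6 others and 663 of these reached a group mean of 4. Among those 663, the Knot mean lay within 0.4 of Control for 7.92% of the higher and 5.99% of the lower probe sets. Over all probe sets, the 3 Ab ME arrays lay above the 6 others in 6.02% and below them in 5.54%. The same rule with the factors exchanged gave 7 probe sets, 4 higher and 3 lower with Knot. The largest of these was CG7214, which differed by 3.87 in Kn ME and by -0.34 in Ab ME. Both differences are taken from the same 3 Control arrays.

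**Figure D1:**
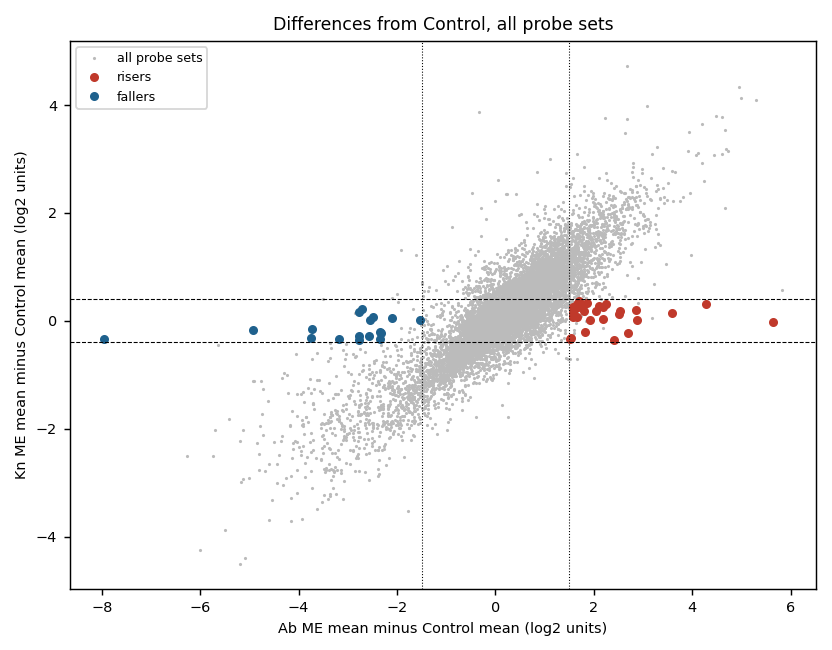
Difference of the Ab ME mean (horizontal axis) and of the Kn ME mean (vertical axis) from the Control mean, in log2 units, for 18769 probe sets (grey), the 30 risers (red) and the 17 fallers (blue). Dotted lines mark 1.5 in either direction for Ab ME and dashed lines 0.4 for Kn ME; both axes use the same Control arrays, and members lie in the flat bands to the right and left by construction.

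The sorted cells held neuronal signal and signal of other cell types. Of 29 neuronal identity genes measured, 26 had a Control mean at or above 1.54, the median of all values, and 14 had one of at least 4. In Ab ME the counts were 18 and 4, and in Kn ME 19 and 7, and the mean over the list was 3.76, 3.87 and 4.37 in Control, 2.40, 2.67 and 2.64 with Abrupt and 2.79, 2.91 and 3.19 with Knot. In Control the corresponding counts were 27 and 23 of 28 for hemocyte genes and 13 and 13 of 16 for muscle genes. No probe set was named ab, and 1 of the kn probe sets read 1.00, 3.75 and 3.53 in Control, 0.53, 0.66 and 0.66 with Abrupt and 0.60, 0.53 and 0.68 with Knot. The arrays labelled Kn ME were thus no higher in kn, and nothing given says whether these probes can see the transgene, so the labels are used unchecked. Replicate arrays correlated across probe sets at 0.93 to 0.944 in Control, 0.984 to 0.985 with Abrupt and 0.974 to 0.977 with Knot.

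Among the lower members the largest differences were those of Cyp4p2, Cyp4p1, spab and Mp20. The median difference of the 17 fallers was -2.71 in Ab ME, with a range from -7.96 to -1.54, and 16 of them differed by 2 or more. In Kn ME the median was -0.21, with a range from -0.35 to 0.22. The gap between the nearest Ab ME array and the nearest array of another group ranged from 0.23 to 6.19 and was at least 1 in 8 of the 17.

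Cyp4p2 and Cyp4p1 had the largest gaps among the fallers. Both encode cytochromes P450 of family 4, heme enzymes that oxidize fatty acids and foreign compounds. Cyp4p2 read 8.71, 9.53 and 9.40 in Control, 0.82, 2.15 and 0.80 with Abrupt and 8.34, 8.65 and 9.63 with Knot. The Ab ME arrays were all near the bottom of the scale and the others all near its upper part, with no overlap. The Ab ME difference of -7.96 (SE 0.46) is 249-fold on the linear scale, and the Kn ME difference was -0.34 (95% interval -1.39 to 0.70). Cyp4p1 read 5.57, 6.53 and 6.53 in Control, 1.18, 1.24 and 1.45 with Abrupt and 5.49, 5.68 and 6.94 with Knot. The Ab ME arrays were again low without exception, by -4.92 (SE 0.40), while Control and Kn ME overlapped throughout. Both Ab ME means, 1.25 ± 0.78 and 1.29 ± 0.15 (SD, n = 3), lie below 1.54, a range in which the deposited values do not tell signal from background, so the size of both differences is uncertain.

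Cyp4p1 and Cyp4p2 are neighbours on chromosome arm 2R and were the only pair of members adjacent in the order of measured genes. The measured genes on either side, hig and Cyp4p3, did not pass the limma test in Ab ME (-0.31, adjusted p = 0.5, and -0.20, adjusted p = 0.909). Both were dim, with Control means of 1.11 and 1.87. Around all mapped members, 7 of 50 measured neighbours of risers rose and 3 fell by the limma test in Ab ME, and 2 of 24 neighbours of fallers rose and 2 fell, where 11.2% of all named genes rose and 5.96% fell.

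Cyp4g1, on the X chromosome, is a P450 that oenocytes use to make cuticular hydrocarbons. It read 4.06, 7.90 and 6.30 in Control, 2.81, 3.83 and 3.31 with Abrupt and 5.81, 6.90 and 6.07 with Knot. Its lowest Control array was only 0.23 above the highest Ab ME array, the smallest gap among the fallers, and the Control arrays spanned more than the difference of -2.77 (SE 0.83). In a list of 22 Cyp4 genes, drawn up after the values were seen, 2 fell in Ab ME, where 5.96% of all named genes fell. Those 2, Cyp4p1 and Cyp4p2, are members selected as lower with Abrupt, so nothing is read from this count. No Cyp4 gene outside the members fell. Another 2 rose, beside 11.2% of named genes, Cyp4ac1 (4.48, SE 0.78, limma adjusted p = 0.00754) and Cyp4ac2 (1.22, SE 0.16, adjusted p = 0.00198). The median of the list was -0.22 in Ab ME and -0.16 in Kn ME, beside medians of -0.01 and 0.00 over all 11982 named genes. Cyp4ac1 also rose with Knot, by 3.79 (SE 0.78, adjusted p = 0.0309).

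**Figure D2:**
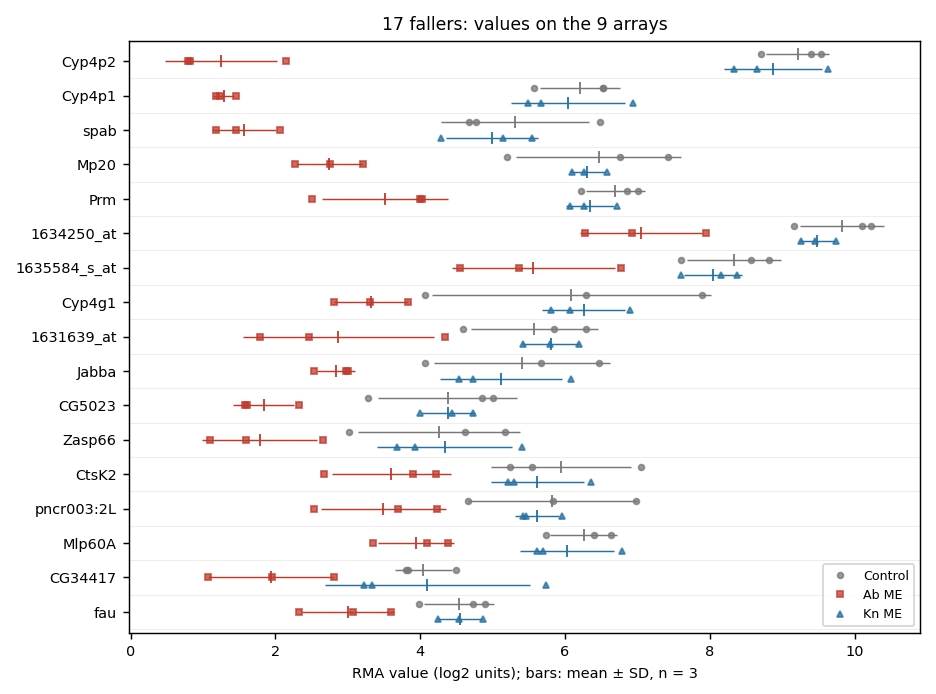
RMA values in log2 units of the 17 fallers on the 9 arrays, with the mean and SD of each group (n = 3). The Ab ME squares lie left of the other arrays in every row by the rule, by 6.19 log2 units for Cyp4p2 and by 0.23 for Cyp4g1.

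Of the fallers 5 are muscle genes. Mp20 encodes a calponin-like muscle protein, Prm paramyosin of the thick filament, Zasp66 a PDZ protein of the Z-disc, Mlp60A a muscle LIM protein, and pncr003:2L the small sarcolamban peptides that regulate the calcium pump SERCA. Mp20 read 5.20, 7.43 and 6.76 in Control, 2.28, 2.76 and 3.21 with Abrupt and 6.58, 6.09 and 6.26 with Knot. The Control range enclosed all 3 Kn ME arrays, and the Ab ME arrays lay clear of both, by -3.72 from Control on average (SE 0.51).

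The member probe set of Prm read 6.23, 7.00 and 6.86 in Control, 4.002, 2.51 and 4.03 with Abrupt and 6.72, 6.07 and 6.27 with Knot. Its Ab ME replicate 2 was lowest, and no Ab ME array came within 2 units of another group. Mlp60A read 5.74, 6.40 and 6.64 in Control, 4.09, 3.35 and 4.39 with Abrupt and 5.61, 5.70 and 6.78 with Knot. It differed by -2.32 (SE 0.40) in Ab ME, with Control and Kn ME interleaved.

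Zasp66 read 4.61, 3.02 and 5.17 in Control, 1.09, 1.60 and 2.66 with Abrupt and 3.68, 3.93 and 5.41 with Knot. The highest Ab ME array and the lowest Control array were 0.36 apart. pncr003:2L read 4.66, 5.84 and 6.99 in Control, 2.54, 3.69 and 4.24 with Abrupt and 5.46, 5.42 and 5.96 with Knot. Its separation was likewise narrow, 0.42, because Control replicate 1 was low and Ab ME replicate 3 high.

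A list of 16 measured muscle genes, holds Prm and Mlp60A and not the other 3 members named. In Ab ME 10 of the 16 fell and 1, Zasp52, rose (1.15, SE 0.23, limma adjusted p = 0.0135), beside 5.96% and 11.2% of all named genes, with a list median of -2.49. The falls of non-members included TpnC73F, a troponin C gene (-4.30, SE 0.66, adjusted p = 0.00438), Mf, myofilin (-3.72, SE 0.36, adjusted p = 0.000591), and Mlp84B, the other muscle LIM gene (-3.25, SE 0.38, adjusted p = 0.0014). In Kn ME 0 of 16 passed the limma test in either direction, where 4.18% of named genes rose and 2.32% fell, and the list median was -0.48. At an unadjusted p under 0.05, 1 of the 16 was higher and 2 were lower in Kn ME, a share near the 19.8% of all probe sets. Single Kn ME differences reached -1.03 for Mlp84B (adjusted p = 0.18) and -0.97 for TpnC73F (adjusted p = 0.467), so these genes lay further below Control than the threshold of 0.4. Tm2, tropomyosin 2, missed membership by 0.02 with a Kn ME difference of -0.42.

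The direct comparison of Kn ME with Ab ME called 4 muscle genes higher in Kn ME, against 0.292% of named genes. They were Mf (3.01, adjusted p = 0.0154), Tm2 (2.95, adjusted p = 0.0172), the troponin T gene up (2.66, adjusted p = 0.0186) and Mlc1, a myosin light chain gene (2.55, SE 0.37, adjusted p = 0.0314). The count became 0 without Ab ME replicate 1 or 2 or without any single Kn ME array. It was 7 without Control replicate 1, with a trend and robust prior or with only the 6 arrays compared. With the replicate number as a block it was 8, and 10 with only probe sets whose highest mean reached 4. Calls over all probe sets moved the same way, from 97 to 47 and 30 without Ab ME replicates 1 and 2. They were 28, 30 and 26 without Kn ME replicates 1, 2 and 3, 139 without Control replicate 1 and 241 with only the 6 arrays compared. The mean level over the list was 5.51, 6.64 and 6.45 in Control, 3.82, 4.01 and 4.44 with Abrupt and 5.64, 5.70 and 6.05 with Knot. In such sorted samples, fewer muscle cells and less muscle RNA per cell cannot be told apart, and the part that carried-over muscle has in the fallers was not tested.

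The remaining fallers have less in common. Jabba encodes a lipid droplet protein that holds histones on the droplet surface, and spab, CG5023, CtsK2, CG34417 and fau complete the named set. spab read 4.67, 4.77 and 6.49 in Control, 1.19, 2.06 and 1.46 with Abrupt and 4.29, 5.15 and 5.54 with Knot. All Ab ME arrays were at least 2.23 below the others, a mean difference of -3.74 (SE 0.52). Jabba read 5.67, 6.47 and 4.07 in Control, 3.01, 2.98 and 2.54 with Abrupt and 4.74, 6.08 and 4.54 with Knot, with Control replicate 3 as its lowest Control array, unlike most fallers.

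CG5023 read 3.27, 4.85 and 5.01 in Control, 1.61, 1.59 and 2.32 with Abrupt and 4.73, 4.44 and 3.99 with Knot. Its Kn ME mean matched that of Control to 0.01, with an interval from -1.03 to 1.05. CtsK2, named as a cathepsin gene, differed by -2.35 in Ab ME (SE 0.57) and by -0.33 in Kn ME. Among the probe sets without a symbol, 1634250_at read 9.16, 10.23 and 10.10 in Control, 6.28, 6.93 and 7.95 with Abrupt and 9.26, 9.45 and 9.74 with Knot. All its Ab ME arrays were lower than every other array, by -2.78 on average. The unnamed 1635584_s_at read 7.60, 8.57 and 8.82 in Control, 4.55, 5.37 and 6.77 with Abrupt and 7.60, 8.15 and 8.38 with Knot. The last unnamed faller, 1631639_at, read 4.60, 5.84 and 6.30 in Control, 1.79, 2.47 and 4.35 with Abrupt and 5.80, 5.42 and 6.19 with Knot. In both, Ab ME replicate 3 was the highest Ab ME array and came within 1 unit of the lowest Control array.

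The fallers shared an order of arrays within the groups. The rule names no replicate, but it used the values and means of these same arrays, so the order is not independent of it. Control replicate 1 was the lowest Control array in 14 of the 17 and Ab ME replicate 3 the highest Ab ME array in 13. The same arrays stood lowest and highest in their groups for the muscle list. Replicate 1 was also the lowest array in 10 fallers for Ab ME and in 9 for Kn ME. Replicate 3 was the highest in 10 for Kn ME, while Control replicates 2 and 3 were each highest in 8. Spread was wide, with a median SD of 0.88 in Control, 0.78 with Abrupt and 0.57 with Knot. Over the 5590 probe sets whose highest mean reached 4 the median SDs were 0.55, 0.26 and 0.31. Without Control replicate 1 the rule gave 11 fallers, 5 of them among the 17, and without Control replicate 2 it gave 33, 13 of them among the 17. Of the 13 named fallers with a mapped chromosome arm, 7 lay on 2R, 2 each on X, 3L and 3R, and 0 on 2L. The named faller without a mapped arm was pncr003:2L, whose name gives 2L. The measured genes were split 20.4% on 2R, 15.7% on X, 19.7% on 3L, 25.0% on 3R and 18.5% on 2L.

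The higher members were led by DptB, CG10859 and Mst57Dc. The median difference of the 30 risers was 1.90 in Ab ME, from 1.51 to 5.65, and 14 differed by 2 or more. In Kn ME the median was 0.17, from -0.35 to 0.37. Their median SD was 0.65 in Control, 0.28 with Abrupt and 0.39 with Knot, and the gap to the nearest array of another group was at least 1 in 11 of the 30 and 0.13 at its smallest. In 8 risers the lower group mean was below 2, and in 5 below the median of all values.

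DptB had the largest difference among the risers. It encodes Diptericin B, an antimicrobial peptide made under the Imd immune pathway. It read 1.35, 1.36 and 1.23 in Control, 5.98, 7.26 and 7.66 with Abrupt and 1.58, 1.32 and 0.99 with Knot. Control and Kn ME arrays were all at levels under 1.6, and the Ab ME arrays stood 4.41 or more above them. The Ab ME difference was 5.65 (SE 0.38), and the Kn ME difference -0.02 (95% interval -0.90 to 0.86). Its Control and Kn ME means, 1.31 and 1.29, lie below 1.54, where signal and background cannot be told apart in these values, so the size of both differences is uncertain.

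In the list of 18 measured immune genes, 9 rose and 1 fell in Ab ME, DptB among the rises, beside 11.2% and 5.96% of all named genes, with a median of 1.32. In Kn ME 2 rose and 1 fell, beside 4.18% and 2.32% of named genes, with a median of 0.68. Of 8 other rises in Ab ME, Mtk, the metchnikowin gene, was largest (5.84, SE 1.06, limma adjusted p = 0.00895), and AttD, an attacin gene, rose by 3.34 (SE 0.58, adjusted p = 0.00724). Mtk, which was no member, had a Kn ME difference of 0.57, with arrays at 6.12, 2.39 and 2.23 in Kn ME beside 2.31, 2.40 and 4.33 in Control. PGRP-LF, named as a peptidoglycan recognition protein gene, rose with both factors, 3.31 units for Abrupt and 2.45 for Knot (limma adjusted p = 0.00527 for Knot). The Toll ligand gene spz also rose with both, 3.35 units for Abrupt and 2.27 for Knot (adjusted p = 0.00121 for Knot). DptB was the 1 immune gene called lower in Kn ME than in Ab ME, against 0.309% of named genes, and between 1 and 3 were called over the alternatives. DptB was selected as high with Abrupt and near Control with Knot, so nothing is read from its call. Without Ab ME replicate 2 the number of immune genes that rose in Ab ME was 5 in place of 9. Ab ME calls over all probe sets were then 1407 in place of 2622. The hemocyte list, blood cell genes, averaged 7.17, 6.33 and 5.99 in Control, 8.31, 8.40 and 8.52 with Abrupt and 8.01, 8.03 and 7.96 with Knot. These levels were above every Control array in both misexpression groups, and their part in the value of DptB was not tested.

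Some risers have roles in ribosome production. Polr1B encodes the second largest subunit of RNA polymerase I, which transcribes ribosomal RNA, and TAF1B a factor that starts its transcription. CG11583 is listed under the synonym dBRX1 and l(1)G0020 under NAT10; yeast Brx1 assembles the large ribosomal subunit and human NAT10 acetylates ribosomal RNA. Polr1B read 3.44, 3.50 and 4.14 in Control, 5.11, 5.39 and 5.34 with Abrupt and 2.63, 4.004 and 4.65 with Knot. The Ab ME arrays were tight and above all others, while Kn ME spread over 2 units. TAF1B read 1.90, 3.89 and 1.98 in Control, 4.16, 4.08 and 4.51 with Abrupt and 2.94, 3.21 and 2.57 with Knot, so that its Control replicate 2 nearly reached the Ab ME arrays.

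CG11583 read 3.88, 3.16 and 3.41 in Control, 5.09, 5.17 and 4.98 with Abrupt and 3.26, 3.77 and 4.06 with Knot. Its groups were clearly apart, with an Ab ME difference of 1.60 (SE 0.25). l(1)G0020 read 2.39, 3.66 and 4.01 in Control, 4.99, 5.22 and 4.55 with Abrupt and 2.52, 3.45 and 4.42 with Knot. Its gap of 0.13 was the smallest among the risers.

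A list of 34 RNA polymerase I and ribosomal RNA processing genes, also drawn up after the values were seen, holds Polr1B and TAF1B. In Ab ME 8 of the 34 rose and 0 fell by the limma test, beside 11.2% and 5.96% of all named genes, with a list median of 1.08. At an unadjusted limma p under 0.05, 20 were higher and 0 lower. The unadjusted share over all probe sets was not computed for Ab ME, so nothing is read from the 20. Polr1C (1.89, SE 0.33, limma adjusted p = 0.0075) and Polr1E (1.70, SE 0.35, adjusted p = 0.0149), further subunits of the polymerase, and Nop56 (1.69, SE 0.37, adjusted p = 0.0201), a protein of ribosomal RNA methylation, were among the 8. The members Polr1B and TAF1B were not among them. In Kn ME 1 rose, Rrp47 (2.52, SE 0.44, adjusted p = 0.0166), where 4.18% of named genes did, and the median was 0.28. The direct limma comparison of Kn ME with Ab ME called 0 of 34 in either direction, where it called 0.292% of named genes higher and 0.309% lower. At an unadjusted p under 0.05, 11 of the 34 were lower and 0 higher in Kn ME, beside 8.75% of all probe sets in either direction. With only the 6 arrays compared it called 2, and without Control replicate 2 it called 1. The count of 8 became 3 without Ab ME replicate 1 or 2 and 14 after centring each array on its median. It was 5 without Ab ME replicate 3, with another quantile normalization or with only the 6 arrays compared. Ab ME calls over all probe sets moved the same way, from 2622 to 1426, 1407 and 1400 without Ab ME replicates 1, 2 and 3. They were 1814 with another quantile normalization, 1726 with only the 6 arrays compared and 3127 after centring. The mean over the list was 4.11, 3.55 and 4.28 in Control, 5.23, 5.16 and 5.01 with Abrupt and 4.26, 4.33 and 4.41 with Knot.

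Spc105R, a kinetochore scaffold gene, Cdk2, the cyclin-dependent kinase of S phase entry, and Ts, thymidylate synthase, belong to cell division and DNA synthesis. Spc105R read 3.09, 2.26 and 3.08 in Control, 3.70, 5.49 and 5.03 with Abrupt and 3.22, 1.97 and 3.30 with Knot. Cdk2 read 2.26, 2.20 and 3.44 in Control, 4.50, 4.13 and 4.02 with Abrupt and 3.43, 1.49 and 3.48 with Knot. Ts read 3.26, 2.10 and 4.06 in Control, 4.65, 4.85 and 5.25 with Abrupt and 3.54, 3.21 and 3.54 with Knot. The Ab ME arrays were highest for all 3 genes, by gaps of 0.40, 0.54 and 0.59. The small Kn ME difference of Cdk2, 0.17, rested on Kn ME replicate 2, and with group medians it was 1.17.

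In the list of 18 measured genes of proliferating imaginal cells, 7 rose and 0 fell in Ab ME, beside 11.2% and 5.96% of all named genes, with a median of 1.10, and Cdk2 was not among the 7. The rises included dup, a replication licensing gene (3.43, SE 0.41, adjusted p = 0.00155), and Mcm5, a subunit of the replicative helicase (2.50, SE 0.38, limma adjusted p = 0.00421). In Kn ME 2 rose, CycB (1.81, SE 0.31, adjusted p = 0.0163) and dup (2.19, SE 0.41, adjusted p = 0.0229), where 4.18% of named genes rose, and the list median was 0.49. The list averaged 2.95, 3.03 and 3.03 in Control, 4.05, 4.33 and 4.31 with Abrupt and 3.63, 3.25 and 3.77 with Knot. The part of proliferating cells in these risers was not tested.

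**Figure D3:**
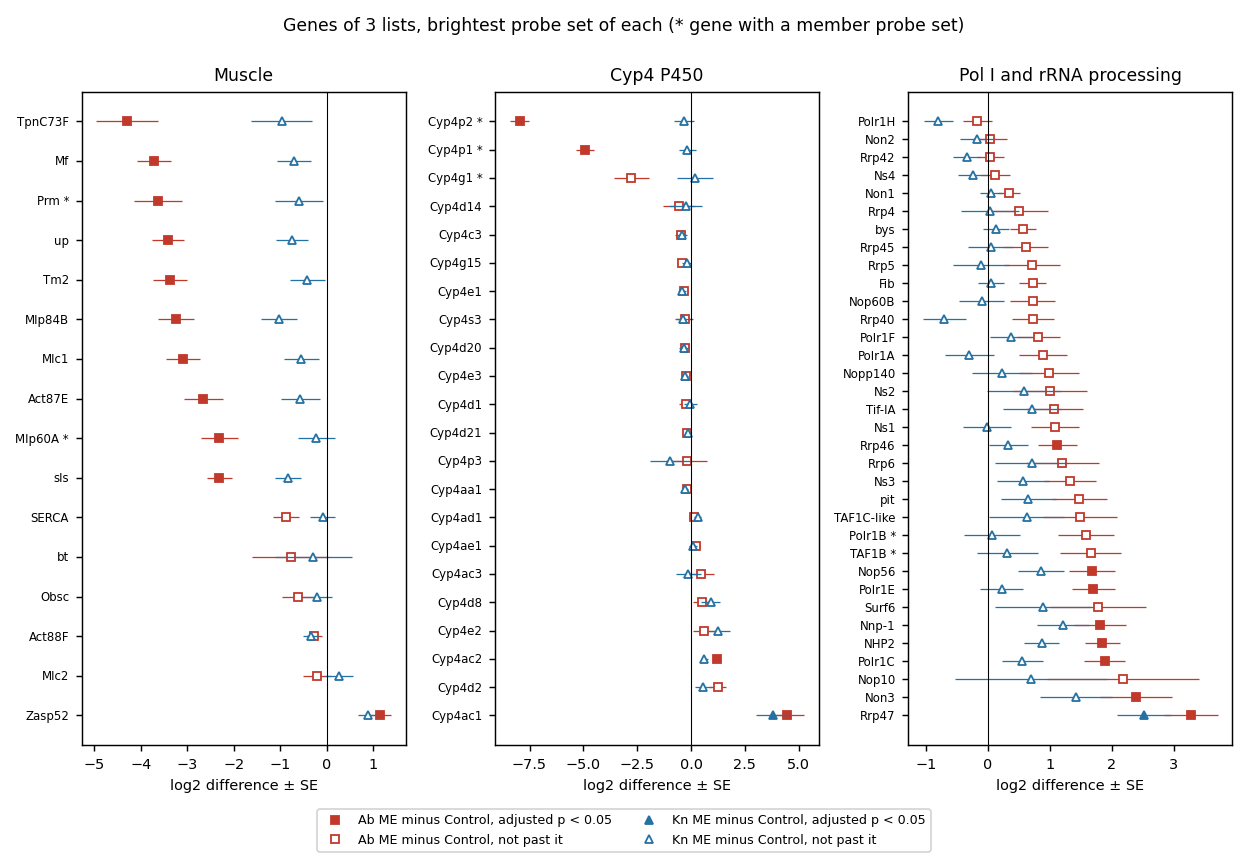
Differences from Control in log2 units with their SE for the genes of the muscle, Cyp4 and polymerase I lists, 1 probe set for each gene, in Ab ME (squares) and Kn ME (triangles), filled where the limma adjusted p is under 0.05. In Ab ME 10 of 16 muscle genes fell and 8 of 34 polymerase I genes rose, while 2 Cyp4 genes fell and 2 rose; asterisks mark genes with a member probe set, which for Prm is not the probe set drawn.

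Several risers with enzyme functions were found outside these groups. CG10863, listed under the aldo-keto reductase synonym AKR2E3, read 5.77, 5.63 and 5.13 in Control, 7.82, 7.76 and 7.72 with Abrupt and 5.67, 6.10 and 5.70 with Knot. Its Ab ME arrays agreed to within 0.11 and lay 1.61 or more above the rest. Art3 encodes an arginine methyltransferase and read 2.30, 3.14 and 3.87 in Control, 5.26, 5.25 and 4.95 with Abrupt and 2.00, 4.26 and 3.59 with Knot. Control and Kn ME overlapped for Art3, and the Ab ME arrays lay 0.69 or more above both. Naam encodes a nicotinamidase, an enzyme of NAD recycling, and differed by 1.86 (SE 0.36) in Ab ME and by 0.33 in Kn ME. The arrays of Naam read 1.65, 2.29 and 2.84 in Control, 4.05, 4.66 and 3.67 with Abrupt and 2.78, 2.83 and 2.16 with Knot. CG6550, listed under the synonym CDKAL1-like after a mammalian enzyme that modifies transfer RNA, read 2.13, 1.54 and 2.53 in Control, 4.26, 4.42 and 4.07 with Abrupt and 2.78, 2.23 and 1.94 with Knot. It differed by 2.18 (SE 0.29) in Ab ME and by 0.25 in Kn ME, with Control and Kn ME overlapping. CG7737, under the polyamine oxidase synonym PAOX, read 2.18, 2.71 and 3.70 in Control, 4.07, 4.43 and 4.67 with Abrupt and 2.31, 2.50 and 2.81 with Knot. Its Ab ME difference of 1.53 (SE 0.36) was near the threshold, and its highest Control array was 0.37 below the lowest Ab ME array.

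Among the largest risers, several read below 2 on most arrays outside Ab ME. CG10859 read 0.91, 2.81 and 0.77 in Control, 5.64, 5.94 and 5.76 with Abrupt and 1.69, 1.98 and 1.75 with Knot. Mst57Dc, named for its transcript in the male accessory gland, read 1.09, 0.84 and 0.96 in Control, 3.54, 4.50 and 5.61 with Abrupt and 1.17, 0.88 and 1.26 with Knot. CG12116 read 1.06, 1.23 and 1.18 in Control, 3.95, 4.13 and 4.003 with Abrupt and 1.06, 1.21 and 1.25 with Knot. All 3 genes were below 2 on every Control and Kn ME array apart from the single Control value of 2.81 for CG10859. The Kn ME difference of CG12116 was 0.02 with an interval from -0.28 to 0.31, the narrowest among the members. Its Control and Kn ME means, 1.155 and 1.17, lie below 1.54, where signal and background cannot be told apart. The narrow interval therefore does not show that the transcript was unchanged with Knot.

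CG17612 read 0.94, 1.77 and 3.13 in Control, 4.53, 4.58 and 5.30 with Abrupt and 2.01, 1.91 and 2.52 with Knot. CG13375 read 2.23, 1.01 and 0.81 in Control, 3.26, 4.64 and 4.24 with Abrupt and 1.40, 1.17 and 0.81 with Knot. CG6912 read 1.76, 1.43 and 1.67 in Control, 3.67, 4.50 and 4.30 with Abrupt and 1.72, 2.03 and 1.66 with Knot. Each of these kept a gap of at least 1.03 between Ab ME and the other arrays.

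Of the unnamed risers, 1633970_at read 2.61, 2.10 and 2.98 in Control, 4.88, 4.54 and 4.85 with Abrupt and 2.30, 2.68 and 2.82 with Knot, a steady separation. 1633741_at read 1.06, 3.10 and 0.93 in Control, 3.997, 4.39 and 4.23 with Abrupt and 1.18, 1.63 and 2.67 with Knot. 1633959_s_at, annotated to both CG30345 and flip, read 1.38, 4.28 and 1.68 in Control, 4.75, 4.62 and 5.17 with Abrupt and 1.60, 1.99 and 2.72 with Knot. In both, Control replicate 2 was far above the other Control arrays. 1626966_s_at read 3.13, 3.39 and 3.57 in Control, 4.71, 4.54 and 5.38 with Abrupt and 2.35, 2.81 and 3.94 with Knot. CG16713 read 2.96, 2.48 and 2.47 in Control, 4.69, 4.19 and 4.15 with Abrupt and 2.69, 3.18 and 3.14 with Knot. Both had their Ab ME arrays clear of the rest, by 0.60 and 0.97. CG31051, Spt, CG16713, CG18273, CG11920 and Mnr complete the named risers, with Ab ME differences from 1.57 to 1.83. CG11920 had 1 Kn ME array, at 5.32, that came within 0.15 of the Ab ME arrays, and Spt had a Control array at 1.42 beside 3.40 and 4.01.

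**Figure D4:**
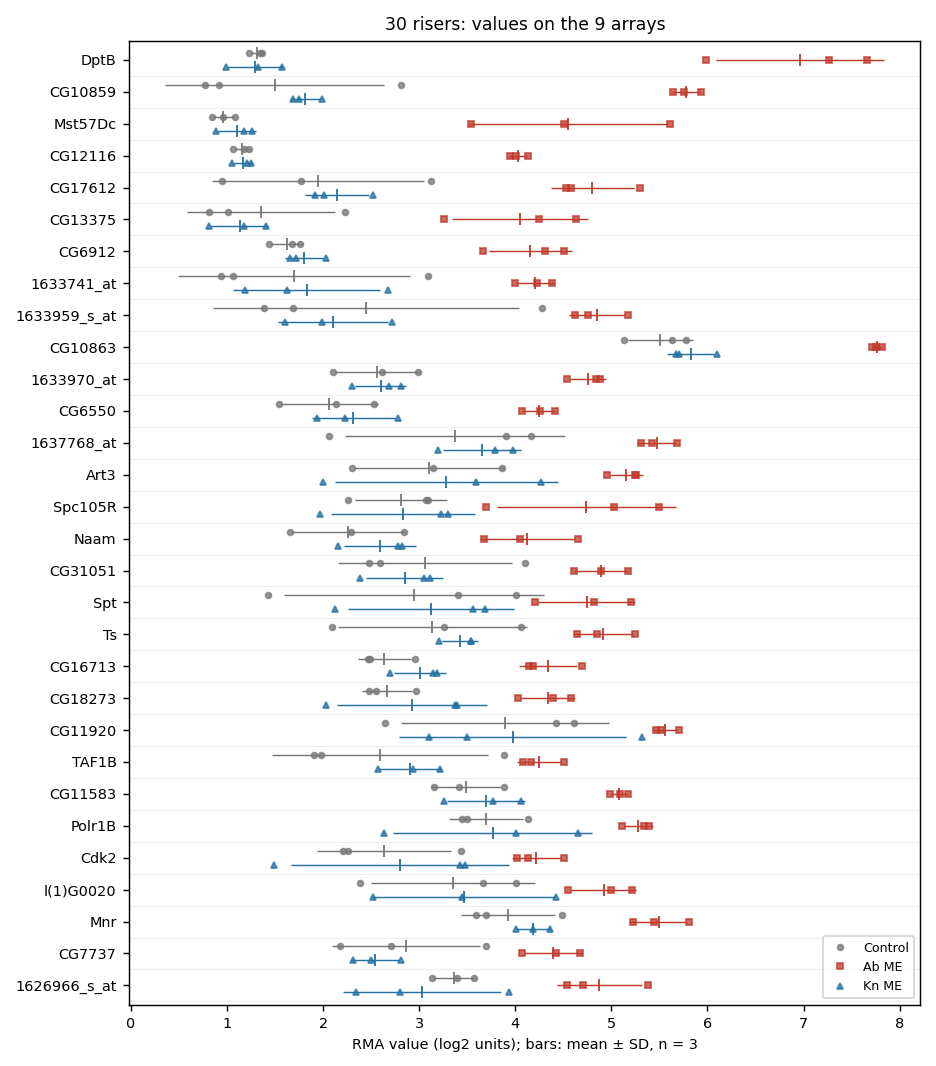
RMA values in log2 units of the 30 risers on the 9 arrays, with the mean and SD of each group (n = 3). The Ab ME squares lie right of the other arrays in every row by the rule, by 4.41 log2 units for DptB and by 0.13 for l(1)G0020, and they cluster more tightly than the Control circles in most rows.

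The 25 named risers were spread over the chromosome arms, with 5 on X, 5 on 2L, 4 on 2R, 3 on 3L and 8 on 3R. Control replicate 1 was the lowest Control array in 12 of the 30 risers and replicate 2 in 10. No single Control array was therefore lowest in most risers. Ab ME replicate 1 and Kn ME replicate 1 were each the lowest array of their group in 16 of the 30. Replicate 2 was highest in 14 for Ab ME and replicate 3 in 15 for Kn ME. When each array was left out in turn the rule gave from 23 to 42 risers.

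How firmly the members can be called close to Control with Knot depends on the precision of 3 arrays a group. The 95% interval of the Kn ME difference extended 1.19 to either side for the median faller and 0.99 for the median riser. It lay within 1 log2 unit of 0 for 10 of the 47 members, 9 risers and 1 faller, and reached 1.5 for 12. The 10 include CG12116 and DptB, whose Control and Kn ME means lie below 1.54, so their intervals do not show a lack of change. At an adjusted limma p under 0.05 the members called were 38 of 47 in Ab ME, where 14.0% of all probe sets were called (8.72% higher and 5.25% lower). In Kn ME 0 of 47 were called by limma, and 0 at an unadjusted p under 0.05, where 5.29% of all probe sets were called (3.34% higher and 1.95% lower) and 19.8% had an unadjusted limma p under 0.05. Between Kn ME and Ab ME 14 were called, 5 fallers and 9 risers, where 0.517% of all probe sets were called (0.266% higher and 0.25% lower in Kn ME) and 8.75% had an unadjusted p under 0.05. The rule used the same values, so nothing is read from these counts. They became 24 and 22 in Ab ME without Ab ME replicates 1 and 2. Between Kn ME and Ab ME they became 8 without either of those arrays, 6, 6 and 7 without Kn ME replicates 1, 2 and 3, 22 without Control replicate 1, 25 among probe sets whose highest mean reached 4 and 27 with only the 6 arrays compared. In Kn ME 1 member was called without Control replicate 2.

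The thresholds cut a continuous range. For the Ab ME difference, 1626966_s_at (1.51), CG7737 (1.53), Mnr (1.57) and fau (-1.54) were just inside, while foi (1.48), CG31678 (1.47), sdk (-1.47) and Glyp (-1.45) were just outside. For the Kn ME difference, CG16713 (0.37), 1634250_at (-0.35), Prm (-0.35) and Cyp4p2 (-0.34) were just inside. pst (0.41), brwl (0.42), BomS6 (0.40) and Tm2 (-0.42) were just outside, with Ab ME differences of 2.14, 1.84, -3.51 and -3.37. For the highest mean, CG12116 (4.03), CG13375 (4.05) and CG34417 (4.10) were inside, and ppk8 (3.96), CG31219 (3.94) and Neurochondrin (3.65) outside.

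Other probe sets of the same genes, which the rule did not choose, were measured on the same RNA. Of the 39 named members 31 had 1 probe set, and the other 8 had 14 further ones. For the 6 fallers with further probe sets, 8 of 12 fell in Ab ME, beside 5.25% of all probe sets. Several of the 12 report the same gene, so they are no independent check. The Kn ME difference of the 14 lay within 0.4 in only 2 and was past 1 in 4. Those 2 were both of Mlp60A and were below 1.54 in the mean of every group, so they say nothing about Knot. CG34417 was the clearest case. Its member probe set read 4.50, 3.80 and 3.83 in Control, 1.95, 1.07 and 2.81 with Abrupt and 3.23, 3.33 and 5.74 with Knot, where replicate 3 lifted the mean.

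Another CG34417 probe set fell by 3.95 in Ab ME (SE 0.38, limma adjusted p = 0.000591) and fell by 2.42 in Kn ME (SE 0.38, adjusted p = 0.0124), and its remaining probe set differed by -3.39 (adjusted p = 0.00339) and -1.89 (adjusted p = 0.0664). CG34417 therefore fell with both factors by 1 of its 3 probe sets, and its remaining one was lower in both without passing in Kn ME. These probe sets were brighter than the member, with Control means of 7.77 and 7.295 beside 4.04. CG34417 met the rule through only 1 probe set. The other probe sets of Zasp66 differed by -4.22 and -4.03 in Ab ME (adjusted p = 0.00083 and 0.00483) and by -1.34 and -1.36 in Kn ME, which did not pass (adjusted p = 0.135 and 0.281). For fau, whose member probe set read 3.98, 4.89 and 4.73 in Control, 3.07, 2.33 and 3.60 with Abrupt and 4.87, 4.25 and 4.53 with Knot, the others differed by -4.04, -3.04, -1.91 and -0.18 in Ab ME and by -0.62, -0.43, -0.65 and 0.42 in Kn ME.

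The other Prm probe set differed by -3.62 in Ab ME (SE 0.52, limma adjusted p = 0.00323) and by -0.59 in Kn ME (adjusted p = 0.579), and that of Jabba by -2.10 (SE 0.53, adjusted p = 0.0337) and 0.42 (adjusted p = 0.713). Both fell in Ab ME and lay past the threshold of 0.4 for Knot. For Jabba the Kn ME difference was opposite in sign to that of its member probe set, -0.29. The further probe sets of Mlp60A were dim in all groups. Among the risers the second probe set of CG18273 rose by 0.99 with Abrupt (SE 0.28, adjusted p = 0.0473) beside 0.90 in Kn ME (adjusted p = 0.107), and that of Mnr differed by -0.75 and -0.80, against 1.57 and 0.26 for the member. The member probe set of CG18273 read 2.55, 2.48 and 2.97 in Control, 4.58, 4.397 and 4.03 with Abrupt and 3.39, 3.37 and 2.03 with Knot. That of Mnr read 4.49, 3.59 and 3.69 in Control, 5.22, 5.44 and 5.81 with Abrupt and 4.01, 4.19 and 4.36 with Knot. In both member probe sets the Ab ME arrays were highest, by 0.64 and 0.73, a separation that the other probe set of Mnr did not share. Probe sets whose name marks possible cross-hybridization made up 6 of the risers and 4 of the fallers.

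**Figure D5:**
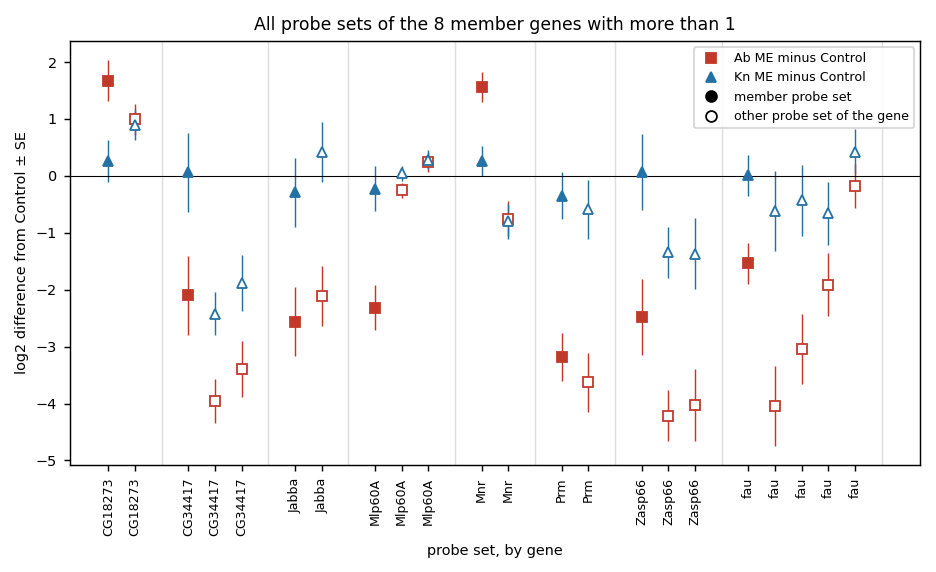
Difference from Control in log2 units with its SE for every probe set of the 8 member genes that have more than 1, in Ab ME (squares) and Kn ME (triangles). Filled symbols are the member probe sets; open triangles of CG34417 and Zasp66 lie between -2.42 and -1.34, away from the filled triangles near 0.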

How the data were processed

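Expression was measured on 9 Affymetrix Drosophila arrays, 3 each for Control, Ab ME and Kn ME. The deposited values are log2 intensities made by the authors with RMA (background correction, quantile normalization and probe summary), per the submitters' processing notes; base 2 is assumed from how far the values reach, and the version and settings are not given in the sources used here. No scan or slide information was used. Of 18952 probe sets, 183 array controls were left out.

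Symbols came from the platform annotation and were brought up to date through gene IDs with a gene table of assembly Release 6 plus ISO1 MT. Of 18769 probe sets, 13647 had 1 symbol, 402 several and 4720 none. Where a gene stands in a list, its brightest probe set represents it.

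Differences were fitted on all 9 arrays with limma 3.58.1 in R 4.3.3 (lmFit and eBayes, 6 residual and 2.44 prior degrees of freedom), with Benjamini-Hochberg adjustment over 18769 probe sets and a threshold of 0.05; intervals are 95% limma intervals. "Rose" and "fell" are used only for passes of that test. The fit and the rule were tested on simulated data. Both differences use the same Control arrays. The number of arrays limits the precision.

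The members and the gene lists were chosen with earlier results of these data known, and the Cyp4 and RNA polymerase I lists were added after values of the members had been seen. Of the other lists, the muscle list holds 2 member genes, the immune and proliferation lists 1 each and the remaining lists 0. Values on each array are given for the 12 members of each direction with the largest difference, for members in a list or with further probe sets, and for those nearest the thresholds; any member with 1 symbol may be named. Alternatives were a second quantile normalization, median centring, group medians, other thresholds, a level filter, a trend and robust prior, only the 6 arrays compared, a replicate block and leaving out each array.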

Additional observations from a re-analysis of the deposited data

How the results depend on the processing

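The count of 30 risers was 16 after a second quantile normalization (12 of them among the 30), 14 with a difference of at least 2, 9 with a highest mean of at least 5, and 23 to 42 with 1 array left out. The count of 17 fallers was 26 with a Knot threshold of 0.5, a threshold chosen after seeing the data, and 11 to 33 with 1 array left out. Centring gave 34 risers and 24 fallers, and group medians 24 and 15. In all 9 leave-one-out repeats and all 3 of requantiling, centring and medians, 3 risers (DptB, Mst57Dc and 1633970_at) and 0 fallers remained members. For the 39 named members, the Ab ME difference moved by less than 1 SD in 191 of 203 comparisons with another setting. These took requantiling, centring, group medians, the lowest and highest leave-one-out values and, for 8 genes, the mean over all probe sets. Reversal, counted only for members called by limma, was found in 0. For left-out arrays and medians the rule fixed this in advance, because all Ab ME arrays lie beyond all Control arrays. Requantiling left 8 of the 17 fallers and 27 of the 30 risers within 0.4 of Control with Knot. Centring moved the median Ab ME difference of all probe sets from -0.06 to 0.11.

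Calls over all probe sets were 2622 for Ab ME, 1726 with only the 6 arrays compared and 1400 to 3249 with 1 array left out. For Kn ME they were 992, 337 and 347 to 1609, and for Kn ME against Ab ME 97, 241 and 26 to 139, with 157 among probe sets whose highest mean reached 4. Calls were higher in direction in 62.4%, 49.6% after requantiling and 76.2% after centring for Ab ME, 63.1%, 48.1% and 72.4% for Kn ME, and 51.5%, 62.0% and 45.3% for Kn ME against Ab ME. The cause of these changes was not tested, beyond the smaller number of arrays or probe sets in some. With the replicate number as a block the calls were 2778, 1078 and 119. Same-numbered arrays deviated together with correlations of 0.034 to 0.272, which were 0.211, 0.219 and 0.272 for replicate 3. No correlations of differently numbered arrays are given for comparison. Whether the numbers pair samples was thus not tested, and the main fit treats the arrays as unpaired. Values near 1.54 have unknown signal over background, which limits 5 risers and 2 fallers most.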
